A study of Mus musculus with 18 samples.

Results

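AA467197, Tmtc2, 1700061F12Rik, Dmxl2 and Tox2 are 5 genes with high signal in regulatory T cells of mouse fat. They were picked for that signal from the 18193 genes that the array represents by a probe set with a single gene symbol. Their 7 probe sets each carry 1 symbol. Tmtc2 and Tox2 have 2 probe sets, and each gene is described by the probe set with the highest mean over the 18 arrays, with the other as a check. The fat Treg values chose the genes, and the choice may also have set them against fat Tconv or lymph node Treg. Differences that involve fat Treg are therefore given for these 5 genes as descriptions, with no test.

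The arrays were Affymetrix M430v2, hybridised with RNA of sorted CD4+ T cells negative for B220, CD11b and CD8a, in 6 groups of 3. Treg were sorted as CD25+ and Tconv as CD25-. Lymph node cells came from C57BL/6 mice of 32 to 36 weeks and thymus cells from 4- to 6-week-old BDC2.5/NOD mice, after depletion of CD8a+ cells, both as pools of 3 to 6 mice per array. Fat cells, also sorted as TCRb+, came from epididymal fat of male C57BL/6 mice of 25 to 35 weeks, as pools of 8 to 10 mice per array. BDC2.5/NOD mice carry a T cell receptor transgene on the NOD background, so strain, age and thymus cannot be told apart. Sex is given for the fat mice only. A replicate is a pool of mice, and its RNA was amplified in 2 rounds. CD25 marks Treg without Foxp3 having been used in the sort. In such bulk samples, fewer cells that carry a transcript and less of it per cell cannot be told apart.

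Regulatory T cells restrain immune responses, and those of visceral fat are known as a tissue population that depends on the nuclear receptor Pparg and the transcription factor Gata3. The 5 genes have little in common by textbook role. AA467197, also called Nmes1, encodes a small mitochondrial protein related to Ndufa4, a subunit of cytochrome c oxidase, and its transcript is known from activated macrophages and epithelia. Tmtc2 encodes a membrane protein of the endoplasmic reticulum from a family that attaches mannose to cadherins. Dmxl2 encodes a rabconnectin, a large partner of the proton pump (V-ATPase) that acidifies vesicles, and Tox2 encodes an HMG-box DNA-binding protein studied in follicular helper T cells. 1700061F12Rik is annotated by RefSeq as a long non-coding RNA.

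The sequences shown are those tied to the annotation of 2 of the genes, a microRNA host and a non-coding RNA: the microRNA that lies inside AA467197, and the start regions of AA467197 and 1700061F12Rik. RefSeq (GRCm38.p6) places the Mir147 hairpin within AA467197, on the + strand at chr2:122640803-122640881. Capitals mark the 5p arm in the hairpin, and the 3p arm is not analysed here. In the mature 5p form at chr2:122640814-122640837 they mark the seed, bases 2 to 8.
Mir147 hairpin: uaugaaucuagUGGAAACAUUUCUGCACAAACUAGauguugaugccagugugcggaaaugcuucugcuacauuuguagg
mmu-miR-147-5p: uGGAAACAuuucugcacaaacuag
The array measures the AA467197 transcript and has no value here for the microRNA.

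The start regions of AA467197, at chr2:122637637-122637936, and of 1700061F12Rik, at chr2:9189265-9189564, both on the + strand of GRCm38.p6, are shown for the same reason. Each runs from 250 bases before the RefSeq start site to 50 bases after it. Capitals mark matches to the E-box CACGTG and the AP-1 motif TGANTCA, searched on both strands.
AA467197 start region: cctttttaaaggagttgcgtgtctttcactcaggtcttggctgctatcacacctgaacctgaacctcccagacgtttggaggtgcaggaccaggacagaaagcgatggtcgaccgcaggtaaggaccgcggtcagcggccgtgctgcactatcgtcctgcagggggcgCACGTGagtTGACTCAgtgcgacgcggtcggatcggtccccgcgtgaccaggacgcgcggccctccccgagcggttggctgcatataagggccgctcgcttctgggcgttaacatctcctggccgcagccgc
1700061F12Rik start region: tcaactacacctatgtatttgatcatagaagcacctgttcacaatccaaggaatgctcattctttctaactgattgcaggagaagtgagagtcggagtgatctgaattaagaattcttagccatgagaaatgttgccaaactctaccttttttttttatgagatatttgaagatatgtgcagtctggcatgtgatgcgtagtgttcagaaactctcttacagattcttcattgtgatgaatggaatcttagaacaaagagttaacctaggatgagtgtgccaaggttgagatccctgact
The AA467197 region is 62.7% G or C with 29 CpG, against a median of 52.7% and 7.0 CpG over 32851 such regions. It holds an E-box 82 bases and an AP-1 motif 73 bases before the start site, motifs found in 7.15% and 7.81% of those regions. The 1700061F12Rik region is 38.3% G or C with 2 CpG. It holds no match to the E-box, to the AP-1 motif or to any of 5 further motifs. Those 5, searched on both strands, were the GATA motif AGATAA (in 11.2% of all regions), the TATA box TATAAA (13.6%), the RUNX motif TGTGGT (16.8%), the NFAT core GGAAA (61.3%) and the STAT motif TTCNNNGAA (8.3%). The start region of Dmxl2 is 80.7% G or C with 63 CpG, that of Tmtc2 60.3% with 10, and the 5 start regions of Tox2 lie between 53.3% and 77.7%. A match is a match of letters only.

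Marker genes went with the labels. All values are the deposited intensities on a linear scale unless a log2 difference is named. Foxp3, the factor that defines Treg, read 1558 ± 97.8 (SD, n = 3 arrays, as for all values given as mean ± SD) in fat Treg and 91.3 ± 40.1 in fat Tconv, and Il2ra, which encodes CD25, 2999.67 ± 265 and 109 ± 57.0. The summed intensity of 8 T cell markers, Cd3e and Cd4 among them, was 18334 to 21107 in fat Treg and 12738 to 24547 in the other groups, with none of the 8 under the median of all values (65.9, called the dim level here). Fat arrays also read higher for markers of other cells. The sum of 15 macrophage markers was 1647 to 4370 in fat Treg, 1298 to 3100 in fat Tconv and 709 to 1049 in lymph node and thymus. The sums of 7 adipocyte markers (2419 to 3477, 1964 to 3364, and 259 to 320 elsewhere) and of 12 stromal markers (3087 to 9113, 3065 to 6106, and 470 to 584 elsewhere) ran the same way. The mean of 3 of the 15 macrophage, 4 of the 7 adipocyte and 5 of the 12 stromal markers was at or under the dim level in fat Treg. Adipoq, Lep, Cidec and Lipe were so in every group. Fabp4 was the only adipocyte marker higher in fat than in lymph node by limma at an adjusted p under 0.05, with a log2 difference of 7.93 in Treg and in Tconv. The medians of the fat arrays, 76.9 to 82.2, lay above those of the other 12, 57.9 to 63.0, so comparisons between fat and lymph node use values after quantile normalization of all 18 arrays, and those within a tissue use the values as deposited.

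**Figure D1:**
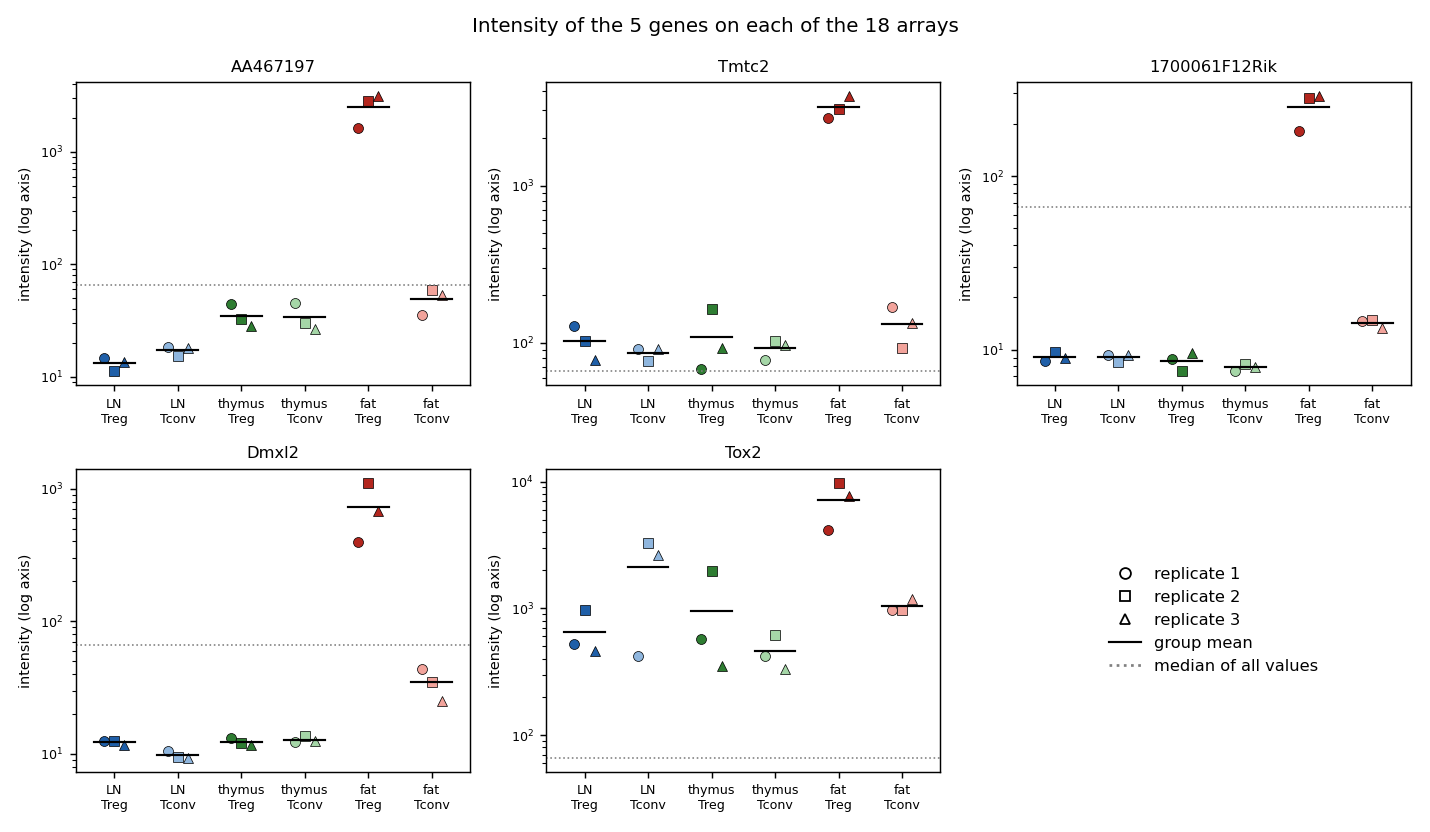
Intensity of each gene on each of the 18 arrays (log axis), by group; symbols are replicates, bars group means and the dotted line the median of all values, 65.9. AA467197, Tmtc2, 1700061F12Rik and Dmxl2 have all 3 fat Treg arrays far above the other 15, while for Tox2 the lowest fat Treg array, 4140, is close to the highest lymph node Tconv array, 3272.

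AA467197 had an intensity of 1630, 2821 and 3134 in the 3 fat Treg arrays, a mean of 2529 ± 794. In fat Tconv it read 35.4, 59.0 and 52.7, in lymph node Treg 14.7, 11.2 and 13.4 and in lymph node Tconv 18.3, 15.2 and 17.9. In thymus it read 43.9, 32.3 and 28.1 in Treg and 45.6, 30.2 and 26.3 in Tconv. Fat Treg was thus the single group above the dim level, and its lowest array was 27.6 times the highest of the other 15, a fat Tconv array. The next groups in order, fat Tconv, thymus Treg and thymus Tconv, overlapped, and all 6 lymph node arrays lay below them. The difference from fat Tconv was 5.67 ± 0.26 (log2 ± SE) and that from lymph node Treg 7.14 ± 0.27.

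Tmtc2 read 2700, 3070 and 3704 in fat Treg, a mean of 3158 ± 508, and 169, 93.0 and 133 in fat Tconv. In lymph node it read 128, 103 and 77.2 in Treg and 91.6, 76.9 and 91.2 in Tconv. In thymus it read 68.3, 165 and 93.3 in Treg and 78.2, 102 and 96.5 in Tconv. The fat Treg arrays were the closest together of the 5 genes, with the highest 1.37 times the lowest, and the lowest was 16.0 times the highest other array. The other 5 groups overlapped their neighbours in order throughout, although all lay above the dim level. Fat Treg differed from fat Tconv by 4.62 ± 0.28 and from lymph node Treg by 4.56 ± 0.27 (log2 ± SE). The other Tmtc2 probe set was also highest in fat Treg, at 99.7, 116 and 94.4, but on a smaller scale: the remaining arrays read 28.0 to 66.9, and the difference from fat Tconv was 1.54.

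1700061F12Rik, the long non-coding RNA, read 181, 282 and 289 in fat Treg, a mean of 251 ± 60.3. Fat Tconv read 14.7, 14.8 and 13.3. The 12 lymph node and thymus arrays lay between 7.50 and 9.65, with no separation between Treg and Tconv. The lowest fat Treg array was 12.3 times the highest other array, a fat Tconv array, and fat Treg was the single group above the dim level. The differences were 4.11 ± 0.16 from fat Tconv and 4.45 ± 0.17 from lymph node Treg (log2 ± SE).

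Dmxl2 read 396, 1107 and 677 in fat Treg, a mean of 727 ± 358, and 43.9, 34.8 and 25.0 in fat Tconv. The 12 lymph node and thymus arrays read 9.30 to 13.6. The fat Treg arrays spread 2.79-fold, the widest of the 5 genes, yet the lowest was 9.03 times the highest other array. Fat Tconv stood second, clear of the groups below it, and under the dim level. The differences were 4.31 ± 0.26 from fat Tconv and 5.45 ± 0.26 from lymph node Treg (log2 ± SE).

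Tox2 was measured well above the dim level in every group. It read 4140, 9771 and 7662 in fat Treg, a mean of 7191 ± 2845, and 974, 973 and 1178 in fat Tconv. Lymph node Tconv read 424, 3272 and 2654 and lymph node Treg 519, 963 and 456. In thymus Tox2 read 568, 1955 and 351 in Treg and 422, 619 and 334 in Tconv. As deposited, the lowest fat Treg array was 1.27 times the highest other array, lymph node Tconv replicate 2; after quantile normalization the ratio was 0.872 and the groups overlapped. Below fat Treg, each group overlapped the next in order. The differences were 2.71 ± 0.65 from fat Tconv and 3.03 ± 0.68 from lymph node Treg (log2 ± SE). The other Tox2 probe set showed none of this: it read 20.6 to 34.0 over the 18 arrays, under the dim level in every group, with a fat Treg minus fat Tconv difference of 0.00.

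**Figure D2:**
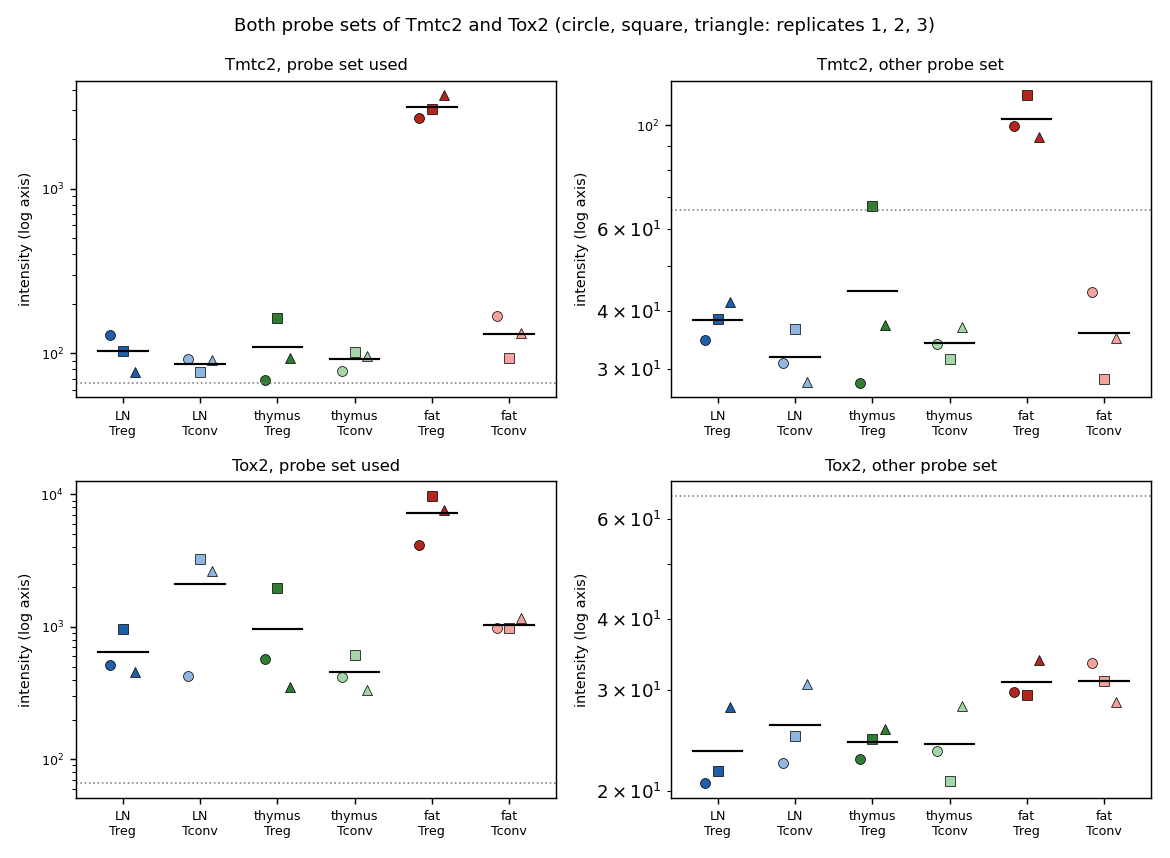
Intensity (log axis) of both probe sets of Tmtc2 (upper row) and Tox2 (lower row) on the 18 arrays; bars are group means and the dotted line is the median of all values, 65.9. Both Tmtc2 probe sets are highest in fat Treg, while the second Tox2 probe set stays between 20.6 and 34.0.

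Of the 12834 genes tested, 1116 (8.70%) had all 3 fat Treg arrays above the other 15 as deposited, and 754 (5.88%) after quantile normalization. A gap of over 8-fold between the lowest fat Treg array and the highest other array was found for 11 genes. AA467197, Tmtc2, 1700061F12Rik and Dmxl2 ranked 2, 4, 7 and 11 by that gap as deposited and Tox2 447. After quantile normalization the ranks were 2, 4, 5 and 8, and 1720 for Tox2. Since the genes were picked for these values, the ranks describe the choice.

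Fat Treg replicate 1 was the lowest of the 3 fat Treg arrays for all 5 genes. It was lowest for 31.5% of all genes tested and for 35.3% of the 811 other genes called higher in fat Treg than in fat Tconv. Neither the summed Treg markers (33323, against 29735 and 33985 in replicates 2 and 3) nor the T cell markers (18484, against 18334 and 21107) were lowest there. The summed stromal markers were highest there, at 9113 against 3087 and 3976, and their part in the lower values was not tested. Without that array the difference between fat Treg and fat Tconv rose from 5.67 to 5.96 for AA467197, from 4.31 to 4.68 for Dmxl2 and from 2.71 to 3.06 for Tox2. The macrophage sum was lowest in fat Treg replicate 2, at 1647, where Dmxl2 and Tox2 were highest. That sum was highest in replicate 3, at 4370, where AA467197, Tmtc2 and 1700061F12Rik were highest. The part of macrophages in these values was not tested.

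In lymph node, neither Tmtc2 nor Tox2, the 2 genes above the dim level there, was called between Treg and Tconv by limma at a Benjamini-Hochberg adjusted p under 0.05, where 4.38% of all genes tested were called (3.26% higher and 1.11% lower in Treg). Neither had an unadjusted p under 0.05. AA467197, 1700061F12Rik and Dmxl2 were under the dim level in every lymph node and thymus group and in fat Tconv. They were tested only because fat Treg brought them past the filter on dim genes, so no count over the 5 genes is read against the share of all genes, here or in the next contrasts. Tox2 was lower in Treg by -1.34 ± 0.65 (log2 ± SE), adjusted p = 0.471. Lymph node Tconv replicate 1, at 424, lay below the lymph node Treg arrays, while replicates 2 and 3 lay above them. Without replicate 1 the difference was -2.27 and was called (adjusted p = 0.0252), and without replicate 2 it was -0.80 and not called. Among arrays with neighbouring numbers, it was 0.29, -1.76 and -2.54. AA467197 read lower in Treg by -0.39 ± 0.26, adjusted p = 0.739. Its 3 Treg arrays lay under the 3 Tconv arrays as deposited, and the difference was called with the replicate number as a block (adjusted p = 0.0429). Dmxl2 differed by 0.33 ± 0.26 (adjusted p = 0.835), with its 3 Treg arrays above the 3 Tconv arrays. Tmtc2 differed by 0.22 ± 0.28 (adjusted p = 0.937) and 1700061F12Rik by 0.00 ± 0.16 (adjusted p = 0.99997). These SEs take 1 spread per gene over all 6 groups, fat Treg included, and are not the spread of lymph node pools alone. For Dmxl2 the SD of log2 values was 0.066 in lymph node Treg and 0.094 in lymph node Tconv. It was 0.74 in fat Treg and 0.41 in fat Tconv.

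Lymph node Tconv replicate 1 was also low in genes of follicular helper T cells, the setting in which Tox2 is best known. Of 14 such genes tested, 10 (71.4%) were lowest in replicate 1, against 35.3% of all genes. The others were lowest in replicate 2 (2 genes) or replicate 3 (2 genes). Il21, the cytokine by which these cells help B cells, read 192, 898 and 424 in the 3 arrays. Pou2af1, a transcriptional coactivator, read 255, 590 and 428. Over the 18 arrays the log2 values of Tox2 and Il21 correlated at r = -0.0028, and over the 15 arrays without fat Treg at 0.53. The part of follicular helper cells in the Tox2 values was not tested.

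In thymus, neither Tmtc2 nor Tox2 was called between Treg and Tconv by limma or had an unadjusted p under 0.05, where 5.11% of all genes were called (3.3% higher and 1.82% lower in Treg). The 4 genes other than Tox2, 3 of them dim, differed by -0.04 to 0.15 on the log2 scale. Tox2 differed by 0.72 ± 0.65 (adjusted p = 0.729), and by 0.01 without thymus Treg replicate 2, whose 1955 was the highest thymus value. That array had the lowest summed Treg markers of its group, 14245 against 23777 and 24106, and the highest summed NK and cytotoxic markers, 7321 against 4499 and 1840, and their part was not tested. The Treg effect in thymus minus that in lymph node was called for 0.304% of all genes and for neither Tmtc2 nor Tox2. Tox2, with an unadjusted p under 0.05, was at 2.06 ± 0.92 (adjusted p = 0.875, limma). Its value was 2.99 without lymph node Tconv replicate 1 and 1.35 without thymus Treg replicate 2.

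Against lymph node Tconv, fat Tconv read higher for AA467197 and Dmxl2, with an adjusted p under 0.05, as a difference between dim signals. Both genes entered the test only through fat Treg, and their number is not read against the 11.3% of all genes called higher and 11.6% called lower (22.9% in either direction). After quantile normalization AA467197 read 27.5, 50.3 and 44.5 in fat Tconv and 20.7, 16.3 and 18.3 in lymph node Tconv, groups that did not overlap. The difference was 1.11 ± 0.27 (log2 ± SE, adjusted p = 0.00631 by limma), and over the alternatives it was 0.93 to 1.49 with an adjusted p of 0.000345 to 0.0306. Dmxl2 read 34.0, 29.9 and 21.5 in fat Tconv against 11.8, 10.1 and 9.62, a difference of 1.42 ± 0.26 (adjusted p = 0.00064, and 6.04e-05 to 0.00487 over the alternatives). Both genes were under the dim level in both groups, where an array with no detection call does not show that a signal is above background. Among arrays with neighbouring numbers, the difference was 1.10, 1.62 and 0.59 for AA467197 and 0.87, 1.56 and 1.82 for Dmxl2.

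1700061F12Rik differed between fat and lymph node Tconv by 0.28 ± 0.17 (adjusted p = 0.251), and by 0.66 with adjusted p = 0.0037 on the deposited scale, on which the median gene was 0.33 higher in fat. Tmtc2 differed by 0.23 ± 0.27 (adjusted p = 0.617). Tox2 ran the other way, at -0.91 ± 0.68 (adjusted p = 0.379), and at -1.92 (adjusted p = 0.021) without lymph node Tconv replicate 1. Without lymph node Tconv replicate 2 it was -0.36 and not called.

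Markers of other cells moved with this contrast. Fat Tconv was higher than lymph node Tconv in 5 of 9 Treg markers and lower in 1, and higher in 5 of 12 macrophage, 6 of 7 stromal and 1 of 3 adipocyte markers that were tested. Over all genes, 11.3% were higher and 11.6% lower. Of 7 NK and cytotoxic markers tested, 2 were higher and 2 lower. The summed intensity of that list was 5507 to 6497 in fat Tconv and 998 to 1171 in lymph node Tconv. Foxp3 itself read 68.3, 138 and 67.9 in fat Tconv and 34.3, 49.1 and 49.9 in lymph node Tconv. Within fat Tconv, AA467197 was highest in replicate 2, where Foxp3 was highest and the macrophage sum lowest (1298, against 3100 and 2572), and lowest in replicate 1, where the macrophage sum was highest. Dmxl2 was highest in replicate 1, where the stromal sum was highest (6106, against 3065 and 3162). The part of any of these cells in the 2 calls was not tested.

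**Figure D3:**
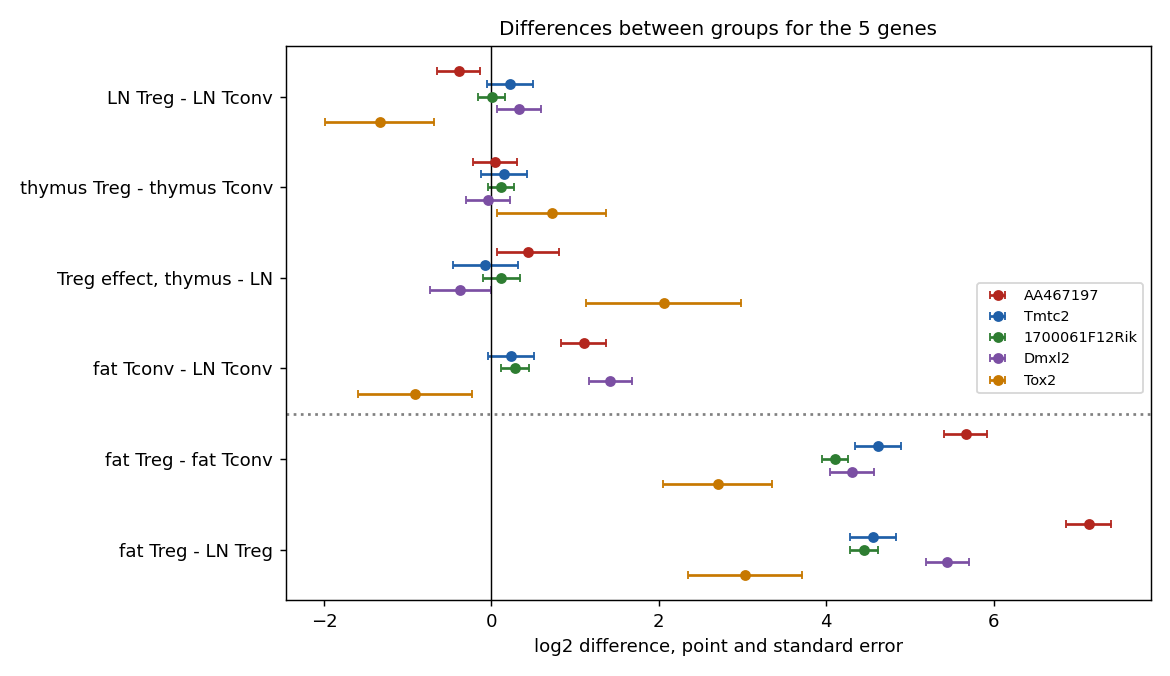
Log2 difference between groups for each gene, with bars of 1 standard error; the contrasts above the dotted line were tested and those under it involve fat Treg and are descriptions. AA467197 and Dmxl2 read higher in fat Tconv than in lymph node Tconv by 1.11 and 1.42, as differences between dim signals. Both passed the filter on dim genes only through fat Treg. The contrasts with fat Treg run from 2.71 to 7.14.

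Ndufa4, the better-known relative of AA467197, was lowest in fat Treg. The log2 values of the pair correlated at r = -0.71 over the 18 arrays, which hold the 3 that chose AA467197, and at 0.25 over the other 15. It read 199, 155 and 163 in fat Treg, 259, 388 and 334 in fat Tconv, 593, 447 and 263 in lymph node Treg and 508, 415 and 321 in lymph node Tconv. Thymus was highest, at 782 ± 201 in Treg and 556 ± 29.4 in Tconv, and all 3 fat Treg arrays were below the other 15. Ndufa4 was lower in fat Treg than in lymph node Treg by -1.54 ± 0.22 (log2 ± SE, adjusted p = 4.52e-05 by limma), a call kept in all 12 alternatives, with an adjusted p of 8.98e-06 to 0.00103. It was lower than in fat Tconv by -0.91 ± 0.26 (adjusted p = 0.0277), a call lost without fat Treg replicate 2 or 3 or fat Tconv replicate 2 or 3 (adjusted p up to 0.127). Among arrays with neighbouring numbers, the difference from lymph node Treg was -2.07, -1.74 and -0.81. A single probe set measures Ndufa4.

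The cytochrome c oxidase genes other than Ndufa4 were not called within fat, between Treg and Tconv. Of 13 tested, Ndufa4 alone was called between fat Treg and fat Tconv, against 11.6% of all genes in either direction, and the median difference of the 13 was -0.03, against 0.01 over all genes. Against lymph node Treg, 0 were higher and 2 lower, Ndufa4 and Cox7a2l, an assembly factor of respiratory supercomplexes (-0.73 ± 0.16, adjusted p = 0.00215; -0.33 and not called as deposited), where 34.5% of all genes were called. Between fat and lymph node Tconv, 3 of 13 were called, a share near the 22.9% over all genes. Cox7c was higher (1.09 ± 0.34, adjusted p = 0.0271), and Ndufa4 (-0.67 ± 0.22, adjusted p = 0.039) and Cox7a2l (-0.47 ± 0.16, adjusted p = 0.0477) were lower. Each of these 3 calls was lost without fat Tconv replicate 1, and in other alternatives. In lymph node and thymus the members of the list were not called by limma; Ndufa4 differed between Treg and Tconv by 0.01 and 0.46 there (adjusted p = 0.999 and 0.464).

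**Figure D4:**
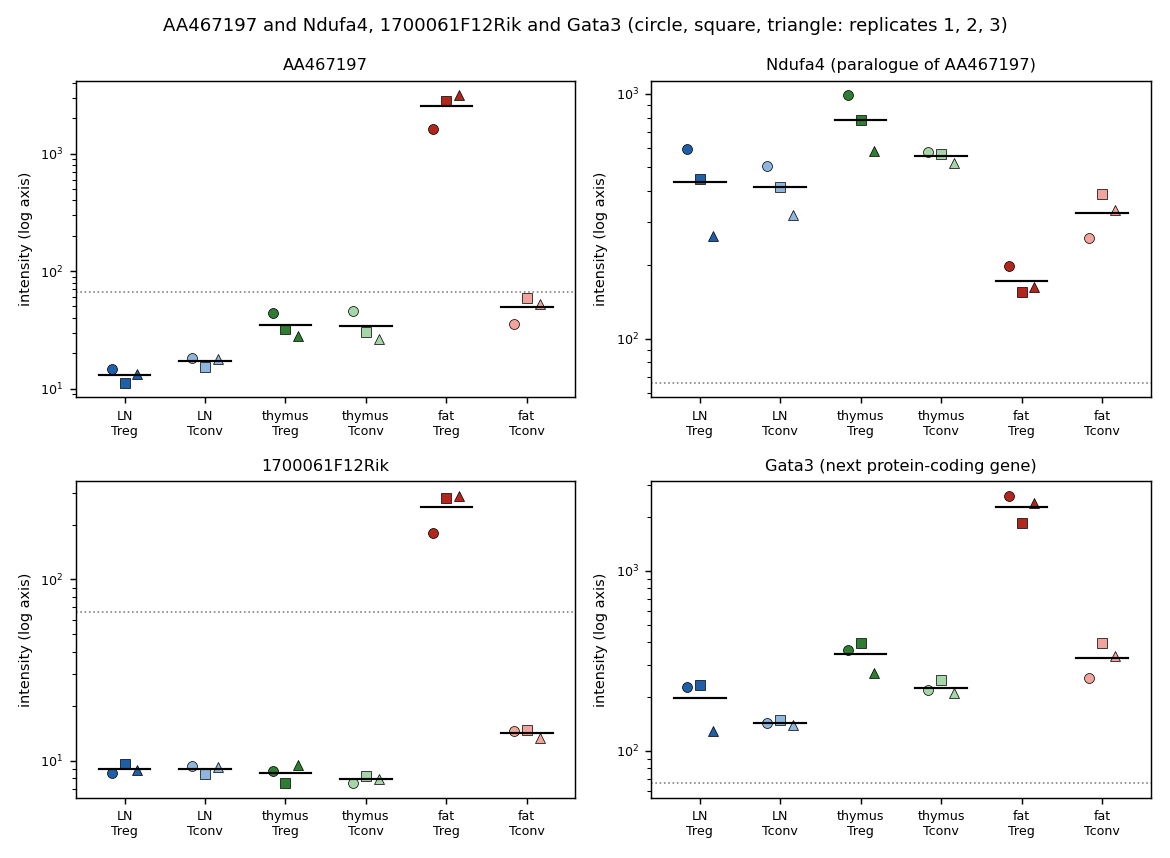
Intensity (log axis) of AA467197 beside its relative Ndufa4 (upper row) and of 1700061F12Rik beside Gata3, the next protein-coding gene on its chromosome (lower row); bars are group means and the dotted line is the median of all values, 65.9. Ndufa4 is lowest in fat Treg, at 155 to 199, and Gata3 is highest there, at 1835 to 2613.

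1700061F12Rik lies on chromosome 2 between Celf2, an RNA-binding protein gene, and Gata3, which are its nearest protein-coding neighbours in the RefSeq table (GRCm38.p6). Gata3, a transcription factor of type 2 helper cells already known in fat Treg, read 2613, 1835 and 2373 in fat Treg. It read 255, 399 and 335 in fat Tconv and 226, 233 and 128 in lymph node Treg. The fat Treg arrays were clear of all others, and the difference was 2.79 ± 0.22 from fat Tconv (adjusted p = 1.15e-07, limma) and 3.24 ± 0.19 from lymph node Treg (adjusted p = 1.71e-09). Over the 18 arrays the log2 values of the pair correlated at r = 0.93, and over the 15 arrays without fat Treg at 0.10. Arrays of 1 group are not independent of each other in such a value. Within fat Treg, replicate 1 was the highest for Gata3 and the lowest for 1700061F12Rik. Celf2 differed by 0.08 between fat Treg and fat Tconv (adjusted p = 0.832). Of the 3 neighbours on each side, all 6 tested, Gata3 alone was called between fat Treg and fat Tconv, where 11.6% of all genes were. Against lymph node Treg, where 34.5% of all genes were called, the neighbour Usp6nl was called as well. It was lower in fat Treg by -1.13 ± 0.26 (adjusted p = 0.00231, limma).

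Of the 4 neighbours of AA467197 that were tested, named after their values were seen, 1 was called lower and 1 higher in fat Treg than in fat Tconv, where 5.24% and 6.36% of all genes were. Slc30a4, a zinc transporter gene, was lower in fat Treg than in fat Tconv by -0.85 ± 0.19 (adjusted p = 0.0066, limma), at 111 ± 28.7 against 198 ± 35.2. Sqor, a mitochondrial enzyme gene of sulfide oxidation, was higher by 0.63 ± 0.19 (adjusted p = 0.032). Spata5l1 and Bloc1s6 were not called, at -0.38 and -0.09 (adjusted p = 0.645 and 0.914). Against lymph node Treg, Slc30a4 (-0.54, adjusted p = 0.0339) and Bloc1s6 (-0.56, adjusted p = 0.0304) were lower, and Sqor (-0.14, adjusted p = 0.581) and Spata5l1 (0.58, adjusted p = 0.233) were not called.

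No relative of Tmtc2 was called higher in fat Treg than in fat Tconv. Of 12 genes of the TMTC family and of protein O-mannosylation tested, 0 were higher and 1 lower there, where 6.36% of all genes were higher and 5.24% lower. That gene was Tmtc4, at 210, 224 and 217 in fat Treg and 387, 518 and 413 in fat Tconv (-1.01 ± 0.23, adjusted p = 0.00715), a call kept in all 12 alternatives. In lymph node Treg Tmtc4 read 690, 861 and 524, and fat Treg was lower by -1.92 ± 0.21 (adjusted p = 1.99e-06). Within lymph node it was higher in Treg than in Tconv by 0.93 ± 0.23 (adjusted p = 0.0262), a call lost when lymph node Treg replicate 1 or 2 or Tconv replicate 2 or 3 was left out (adjusted p up to 0.162). Against lymph node Treg, where 34.5% of all genes were called, 1 of the 12 was higher, Tmtc1 (0.94 ± 0.24, adjusted p = 0.0057), and 2 were lower, Tmtc4 and Pomk, a kinase gene of the mannosyl glycan on dystroglycan (-1.35 ± 0.25, adjusted p = 0.000395). The other Tmtc1 probe set differed from lymph node Treg by 0.015. That of Tmtc4 differed by -0.65, and by -0.18 from fat Tconv. Both read under the dim level in these groups. Tmtc3 was higher in lymph node Treg than Tconv (0.60 ± 0.15, adjusted p = 0.0291) and in fat Tconv than lymph node Tconv (0.52 ± 0.15, adjusted p = 0.0188). In the latter contrast Pomk (-0.87 ± 0.25) and Dpm2 (-0.65 ± 0.19), a subunit of the enzyme that makes the mannose donor, were lower. With 1 array left out at a time, the Tmtc3 call in lymph node was lost in 5 fits. In fat against lymph node Tconv the call was lost in 2 fits for Tmtc3, 4 for Pomk and 3 for Dpm2.

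Neither the paralogue nor the partner subunit of Dmxl2 was called within fat, between Treg and Tconv. Dmxl1, its paralogue, read 249, 230 and 304 in fat Treg and 204, 316 and 272 in fat Tconv, and Wdr7, the other rabconnectin subunit, 442, 375 and 339 against 422, 359 and 325. The groups overlapped for both, with differences of -0.01 ± 0.31 and 0.06 ± 0.19 (adjusted p = 0.997 and 0.932, limma). Of 21 genes of this list tested, most of them subunits of the V-ATPase, 2 were higher and 1 lower in fat Treg than in fat Tconv, with a median of 0.02. These counts are near the 6.36% and 5.24% of all genes called. Atp6v0d1, of the membrane sector of the pump, was higher by 0.72 ± 0.22 (adjusted p = 0.041), and Atp6v0a1, an isoform of the a subunit, by 0.75 ± 0.20 (adjusted p = 0.0163). Of 12 alternatives, the Atp6v0d1 call was lost in 6 (adjusted p up to 0.176), 5 of them with 1 array left out. The Atp6v0a1 call was lost in 5 (adjusted p up to 0.116), and its other 3 probe sets differed by 0.04 to 0.28. Atp6v0a2, another isoform of the a subunit, was lower by -0.70 ± 0.15 (adjusted p = 0.00389) in all 12 alternatives, and was also lower in thymus Treg than Tconv (-0.81 ± 0.15, adjusted p = 0.00259, and 0.0664 with only the thymus arrays fitted). Against lymph node Treg, 4 of the 21 were higher and 3 lower in fat Treg, near the 16.3% and 18.2% of all genes. Atp6v0d1 was the largest rise (1.08 ± 0.22, adjusted p = 0.000843) and Atp6v1g2 the largest fall (-0.79 ± 0.18, adjusted p = 0.00211). Fat Tconv differed from lymph node Tconv in 2 higher and 1 lower, where 22.9% of all genes were called.

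Of the other TOX genes, Tox and Tox4 were tested and neither was called in any of the 6 contrasts. Tox, studied in thymocyte selection and T cell exhaustion, read 568, 542 and 799 in fat Treg and 261, 507 and 482 in fat Tconv, a difference of 0.65 ± 0.25 (adjusted p = 0.114, limma). Tox4 differed by 0.12 ± 0.16 (adjusted p = 0.797). Tox3 was under the dim level in all groups, between 11.1 and 16.2.

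More follicular helper genes were lower than higher in fat Treg. Of 14 tested, 1 was higher and 5 lower in fat Treg than in fat Tconv, and 1 was higher and 9 lower than in lymph node Treg, with medians of -0.99 and -1.52 against 0.01 over all genes in both. Over all genes, 6.36% were higher and 5.24% lower in the first contrast and 16.3% and 18.2% in the second. The largest falls against fat Tconv were Sh2d1a (-3.14 ± 0.29), an adaptor of SLAM receptors, Btla (-2.99 ± 0.19), an inhibitory receptor, and Slamf6 (-2.82 ± 0.24), with an adjusted p of 5.51e-07 or less. The exception was Pdcd1, which encodes the inhibitory receptor PD-1, at 680, 502 and 1079 in fat Treg and 63.0, 91.7 and 150 in fat Tconv (2.91 ± 0.34, adjusted p = 1.01e-05). Pdcd1 was also higher in thymus Treg than Tconv (1.78 ± 0.34, adjusted p = 0.00341).

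Across the 18 arrays, AA467197, Tmtc2, 1700061F12Rik and Dmxl2 correlated with each other at r = 0.95 to 0.98 and with Tox2 at 0.66 to 0.73 (Pearson's r of log2 values after quantile normalization). The genes were picked for the height of the 3 fat Treg arrays, which sets these values. Over the 15 arrays without fat Treg, the 10 pairs ranged from -0.24 to 0.67, with 1700061F12Rik and Dmxl2 at 0.67 and AA467197 and Dmxl2 at 0.46, and those arrays share tissue and scale. The transcripts whose pattern over the 18 arrays was most like that of each gene are given as a description, with no test. For AA467197 they were Pcyt1a (0.98), Ctbp2 (0.98), Bace2 (0.97), Dmxl2 (0.97) and Fam183b (0.96). For Tmtc2 they were Adam8 (0.99), Ccr1, Npnt, Zfp503 and 1700061F12Rik (each 0.98), and for 1700061F12Rik they were Cxcl3 (0.99), Bace2, Magi1, Adam8 and Irs2. Dmxl2 was closest to Bace2 (0.99), 1700061F12Rik, Hpgd, Irs2 and Cxcl3. Tox2 had no such close companion: its nearest were Trim3 (0.89), Plec (0.86), Ppp1r11 (0.84), Cabyr (0.83) and Dxo (0.81). Without the fat Treg arrays the companions were others: Ttbk2, Fam133b and Id2 for AA467197 (0.92 to 0.93), Bpnt2, Mospd2 and Mapk6 for Tmtc2 (0.78 to 0.80), and Eif5a2, Akr1b10 and Vps18 for 1700061F12Rik (0.89 to 0.91). For Dmxl2 they were Sult1e1, Fbxo30 and Fem1c (0.93 to 0.94), and for Tox2 Saa2, Sapcd2 and 1700037C18Rik, from 0.84 down.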

How the data were processed

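The authors deposited linear intensity per probe set, computed by RMA in GenePattern per the labels and the series' design text. Neither the version nor the set of arrays that RMA put on 1 scale is given in the sources used here. Of 45101 probe sets, 64 were controls, 34945 carried 1 gene symbol in GEO's platform annotation, 932 several and 9160 none. Values were taken as log2. A gene was kept where at least 1 group mean exceeded the median of all values (65.9, log2 6.04), which left 12834; AA467197, 1700061F12Rik and Dmxl2 passed only through fat Treg. limma 3.58.1 (lmFit, eBayes; R 4.3.3) was fitted to the 18 arrays with a term for each of the 6 groups (residual degrees of freedom 12, prior 4.74), with Benjamini-Hochberg adjustment over all genes tested. A gene is called, and said to be higher or lower in a test, at an adjusted p under 0.05. Fat was compared with lymph node after quantile normalization of the 18 arrays. On simulated data for 12834 genes, 76 of 100 lymph node genes changed by a log2 of 1 were recovered and 100 of 100 changed by 2, with 9 false calls. The simulated noise was independent between arrays, with 1 SD per gene in all groups. Same-numbered real arrays deviated together and group SDs differed, so these rates need not hold for the deposited data.

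The members, lists and tests were chosen with earlier results of these data known. Named genes are the members, up to 3 called genes per direction of each list, the genes nearest in pattern (5 over 18 arrays, 3 over 15), Foxp3, Il2ra, Cd4, Cd3e, Pparg, Gata3 and Il10. The 5 family lists are the TOX, follicular helper, TMTC, V-ATPase and cytochrome c oxidase genes; list genes with no probe set of a single symbol were not analysed here. Same-numbered Treg and Tconv arrays of a tissue deviated together (r = 0.36 to 0.67 in all 9 pairs), so the replicate number was tried as a block. Arrays whose numbers in the labels lie within 20 of each other were set side by side; what that number marks is not given. P-values and SEs of the main fits measure the spread between pools, taken as 1 spread per gene over all 6 groups. With 3 arrays per group the precision is limited. Promoter, microRNA and gene annotation are RefSeq's (GRCm38.p6); all 5 members matched.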

Additional observations from a re-analysis of the deposited data

How the results depend on the processing

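No call among the 5 genes, AA467197 and Dmxl2 in fat against lymph node Tconv, was lost in any alternative. Both genes were under the dim level in both groups, and the alternatives do not show that either signal is above background. A call was gained by 4 values: AA467197 in lymph node with the replicate block (-0.39, adjusted p = 0.0429), Tox2 without lymph node Tconv replicate 1 in lymph node (-2.27) and in fat against lymph node Tconv (-1.92), and 1700061F12Rik in that contrast as deposited (0.66). Of these calls, all but those of Tox2 are between dim signals, of genes that entered the tests only through fat Treg. With the mean of all probe sets, the fat Treg minus fat Tconv difference fell to 3.08 for Tmtc2 and 1.35 for Tox2, and that from lymph node Treg to 2.79 and 1.50; the latter was 4.96 for Tmtc2 as deposited. Counts of called genes depended more on the settings. With the replicate block they were 1049 in lymph node (562 without it), 1549 in thymus (656), 135 for the difference of Treg effects (39) and 2669 in fat (1488), and for the 5 lists together 14 in thymus (6) and 17 in fat (11). As deposited, they were 5457 for fat against lymph node Tconv (2937 after quantile normalization) and 7045 for Treg (4423), of which 90.3% and 83.1% were higher, against 49.2% and 47.2%; the median gene was then 0.33 and 0.37 higher in fat. With each array centred on its median, 39.9% of the Treg calls were higher and the lists had 9 calls in the Tconv contrast (15). With only the groups compared, thymus had 396. Leaving out 1 array each gave 444 to 991 in thymus (991 without thymus Treg replicate 3), 24 to 64 for the difference of Treg effects (64 without that array, 24 without thymus Tconv replicate 2), and for the lists 2 to 6 in lymph node (7 with all), 0 to 1 for the difference of effects (0) and 6 to 13 in fat against lymph node Tconv. Atp6v1g1, lower in fat than lymph node Treg (-0.45), was at 0.0719 as deposited. Of the values of other genes named, 129 lost their call, 87 of them where 1 array was left out. The replicate block changed no other call of the 5 genes.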

Other observations

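Pparg and Il10, both known in fat Treg, give the scale of the fat Treg signal. Pparg, the nuclear receptor of fat cell formation, read 657, 967 and 950 in fat Treg, 55.8, 87.5 and 126 in fat Tconv and 21.4 to 35.4 in the other 12 arrays. Il10, an anti-inflammatory cytokine gene, read 5559, 6542 and 6253 in fat Treg, 193, 259 and 210 in fat Tconv and 110.8 ± 27.9 in lymph node Treg. Both were lowest in fat Treg replicate 1, but of the 14 fat Treg reference genes they belong to, 5 were lowest there and 9 in replicate 2.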
